A study of Homo sapiens with 9 samples.

Results

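The cytosolic ribosomal protein genes were examined across all 3 groups of a TRAM2 knockout experiment. They were taken as the protein-coding genes of the GENCODE annotation whose symbol starts with RPL or RPS and a digit, or is RPLP0, RPLP1 or RPLP2, without the RPS6K kinases and without pseudogene symbols. The rule found 89 of 59294 genes, which comprised 76 core genes (46 of the large 60S subunit and 30 of the small 40S subunit), 10 paralogs of core genes such as RPL22L1, and 3 readthrough genes that join a ribosomal protein gene to its neighbour. Of these, 85 passed the filter on low counts and were tested. The other 4 (RPL3L, RPL10L, RPS4Y1 and RPS4Y2) did not pass. RPL3L had at most 5.15 estimated reads in any library and RPL10L had 0 reads in all of them.

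The cells were MCF10A-YAP, an immortalised breast epithelial line that overexpresses constitutively active YAP, a transcription coactivator that drives proliferation. The groups were cells with sgRNA TRAM2-KO1, cells with sgRNA TRAM2-KO2, and control cells with a non-targeting sgRNA, with 3 libraries per group, lettered A to C. TRAM2 encodes a protein of the endoplasmic reticulum membrane that sits near the protein translocation channel. All 3 groups carried the YAP construct and a guide vector and had been selected with antibiotic, and nothing in the labels says that a clone was picked. The series design text names other conditions than the sample labels do, and the groups follow the labels.

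A cytosolic ribosome holds a small subunit that decodes the mRNA and a large subunit that joins amino acids, and each core ribosomal protein is needed in about equal number. Their mRNAs are among the most abundant of a growing cell. Many of them begin with a 5' terminal oligopyrimidine (TOP) tract, a cytosine at the first base followed by a run of cytosines and thymines, through which mTORC1 and LARP1 control their translation. Translation is not measured by mRNA levels. Excess free RPL5 and RPL11 are known to bind MDM2 and so to stabilise p53.

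The starts of the genes are shown because the TOP tract is the feature these mRNAs share. A tract was counted when the annotated start base was C and at least the next 4 bases were each C or T, read on the transcribed strand only, at the start of its RefSeq entry (GRCh38.p14). For any symbol with several entries, the one with the longest tract was used, for members and all genes alike. Of 89 symbols, 71 had an entry and 48 of these (67.6%) had a tract, against 1404 of 27305 genes (5.14%) over all entries. A tract missing at an annotated start says only that these letters are not there. In the lines below, each 30-base window runs from 15 bases before the start to 15 bases from the start on, and capitals mark the tract within the window. The first 4 pairs set a core gene against its paralog, and the last 4 lines are 3 of the members that differed between the guides and a stalk protein gene.
RPL26 (chr17:8383179-8383208, minus strand): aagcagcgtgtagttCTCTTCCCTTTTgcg
RPL26L1 (chr5:172958714-172958743, plus strand): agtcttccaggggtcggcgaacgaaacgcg
RPS27 (chr1:153990747-153990776, plus strand): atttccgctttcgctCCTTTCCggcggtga
RPS27L (chr15:63157463-63157492, minus strand): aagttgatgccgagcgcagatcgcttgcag
RPL22 (chr1:6199581-6199610, minus strand): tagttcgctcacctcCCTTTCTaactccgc
RPL22L1 (chr3:170870181-170870210, minus strand): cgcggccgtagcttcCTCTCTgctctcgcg
RPL36A (chrX:101390996-101391025, plus strand): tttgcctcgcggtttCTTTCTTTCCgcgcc
RPL36AL (chr14:49620612-49620641, minus strand): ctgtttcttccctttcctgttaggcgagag
RPL11 (chr1:23691791-23691820, plus strand): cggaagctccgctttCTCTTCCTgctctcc
RPL21 (chr13:27251543-27251572, plus strand): cggccccgcctctttCCTTTCggccggaac
RPS4X (chrX:72277234-72277263, minus strand): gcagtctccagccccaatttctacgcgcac
RPLP2 (chr11:809952-809981, plus strand): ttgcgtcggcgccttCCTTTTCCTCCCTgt
All 4 core genes of the pairs had a tract, of 12 bases in RPL26, 10 in RPL36A and 7 in RPS27 and RPL22. Of the 4 paralogs, RPL22L1 had one, of 6 bases, and RPL26L1, RPS27L and RPL36AL had none at the annotated start.

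Libraries held 21745712 to 27563287 estimated reads. TRAM2 had 203 to 219 CPM (a gene's read count scaled to library size, with TMM factors) in TRAM2-KO1, 210 to 216 CPM in TRAM2-KO2 and 464 to 481 CPM in control, so that all 6 knockout libraries lay below the control ones, with RNA still present. Of 8 markers of breast basal epithelium, 7 were tested. The other, TP63, was under 1 TPM in every library. Summed markers of leukocytes were at 55.8 to 63.7 TPM (the length-scaled abundance that Salmon gives) in TRAM2-KO1, 57.6 to 64.6 TPM in TRAM2-KO2 and 54.3 to 56.7 TPM in control, nearly all of it LCP1, while the other 2 markers of that list were under 1 TPM everywhere. LCP1 lay above control in every library of both guides, at log2 values of 0.087 and 0.11 (edgeR adjusted p = 0.24 and 0.16). Summed markers of fibroblasts reached at most 3.31 TPM and those of endothelium at most 0.0374 TPM in any library. The basal markers themselves moved. CDH3, LAMB3 and CDH1 fell in TRAM2-KO1 against control, KRT5, KRT14 and KRT17 rose in TRAM2-KO2 against control, and 6 of 7 were higher in TRAM2-KO2 than in TRAM2-KO1 (edgeR quasi-likelihood test, adjusted p below the 0.05 threshold). The part of these shifts in the results that follow was not tested.

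The ribosomal protein genes were expressed at high and similar levels in all groups. The median level over the 85 tested members was 1638 TPM in TRAM2-KO1, 1555 TPM in TRAM2-KO2 and 1537 TPM in control, and 62 members exceeded 1000 TPM in control. TPM is scaled to transcript length, so levels may be compared between genes. The highest was RPS3, a protein at the mRNA entry of the small subunit, at 4335, 4607 and 4470 TPM in TRAM2-KO1, 4238, 4255 and 4402 TPM in TRAM2-KO2 and 4295, 4432 and 4387 TPM in control. RPL41, which encodes a very short peptide, followed with 3626, 4197 and 4948 TPM in TRAM2-KO1, 3925, 3447 and 3879 TPM in TRAM2-KO2 and 3965, 3670 and 3808 TPM in control. The groups overlapped for both genes. RPL26, RPL7, RPL8 and RPL4 came next, with control means of 3708, 3189, 3185 and 3106 TPM.

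At the other end stood the readthrough genes and the paralogs. RPL17-C18orf32 averaged 2.496 TPM in TRAM2-KO1, 1.79 TPM in TRAM2-KO2 and 1.84 TPM in control, RPL39L 7.03, 8.45 and 8.56 TPM in the same groups, RPL36A-HNRNPH2 12.3, 14.7 and 13.0 TPM, and RPS10-NUDT3 21.3, 18.6 and 20.9 TPM. The readthrough genes overlap their parent genes, and the quantifier divides reads between them, so their values are uncertain. RPL7L1 and RPL36AL, at 83.6 ± 3.91 and 275 ± 3.22 TPM in control (SD, n = 3), completed the 6 lowest. Part of a level rests on how the quantifier treats very short transcripts. Transcripts with an effective length under 100 nt supplied 46.7% of the control TPM of RPL26, 52.8% of that of RPL38, 28.6% of that of RPL41 and 96.6% of that of RPS28, and none of that of RPS3. Ranked by CPM per kilobase of used transcript length instead, RPL8 was 1st, RPL7 2nd, RPS3 4th, RPL41 6th and RPL26 10th, and Spearman's rho between both scales was 0.88 over the 85 members.

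**Figure D1:**
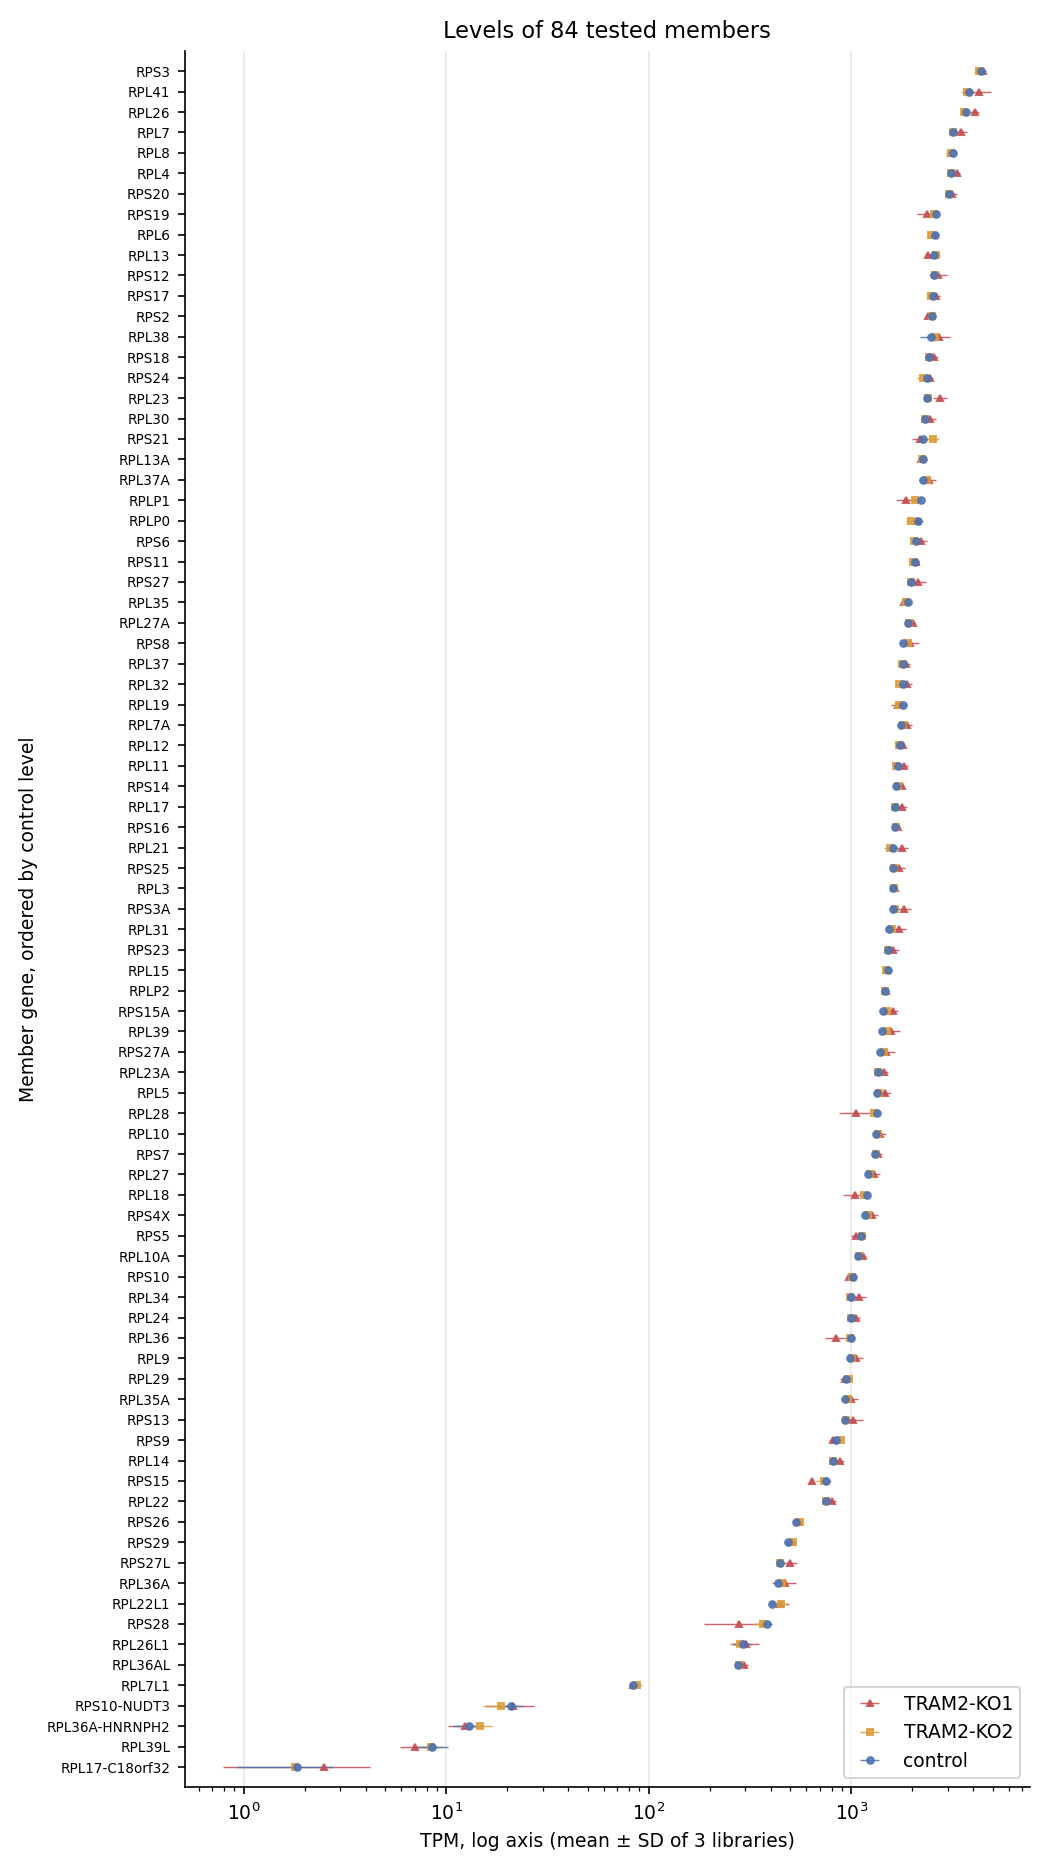
Level of 84 of the 85 tested members in TPM on a log axis, as mean ± SD of the 3 libraries of TRAM2-KO1 (triangles), TRAM2-KO2 (squares) and control (circles), ordered by control mean. Core genes have control means of 382 TPM (RPS28) or more, RPS3 is highest at 4371 TPM, and the means of the readthrough genes and RPL39L are 21.3 TPM or lower in every group.

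The share of reads on these genes was slightly larger in knockout libraries. It was 4.89, 5.10 and 4.89% of gene reads in TRAM2-KO1 libraries A, B and C, 4.83, 4.73 and 4.72% in TRAM2-KO2 libraries, and 4.71, 4.70 and 4.66% in control libraries. Each knockout library lay above each control library, and each TRAM2-KO1 library above each TRAM2-KO2 library. With mitochondrial genes left out of the total, TRAM2-KO2 B at 4.86% was below control A at 4.87%, so TRAM2-KO2 and control overlapped (exact permutation p = 0.20). TRAM2-KO1 exceeded control by 0.27 percentage points (means 4.96 ± 0.12% and 4.69 ± 0.026%, SD, n = 3 each), and TRAM2-KO2 exceeded control by 0.068 percentage points (4.76 ± 0.062%). Each of these comparisons gave p = 0.10 in an exact two-sided permutation test, the smallest that 3 against 3 libraries allow. The 6 knockout libraries against the 3 control libraries gave p = 0.0238, the smallest possible there, and an adjusted p of 0.0952 over the 4 comparisons (exact permutation test). The ratio of 60S to 40S reads was 1.618, 1.590 and 1.637 in TRAM2-KO1, 1.618, 1.623 and 1.621 in TRAM2-KO2 and 1.628, 1.628 and 1.625 in control. TRAM2-KO1 overlapped control, TRAM2-KO2 lay below it, and the ratio was not tested. Counted as a share of TPM, the groups overlapped, with 13.5, 14.4 and 13.8% in TRAM2-KO1, 13.3, 13.7 and 13.5% in TRAM2-KO2 and 13.4, 13.5 and 13.6% in control. A share is relative to all other mRNA, so RNA per cell was not measured, and in a bulk sample fewer cells of a kind and less RNA per cell cannot be told apart.

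**Figure D2:**
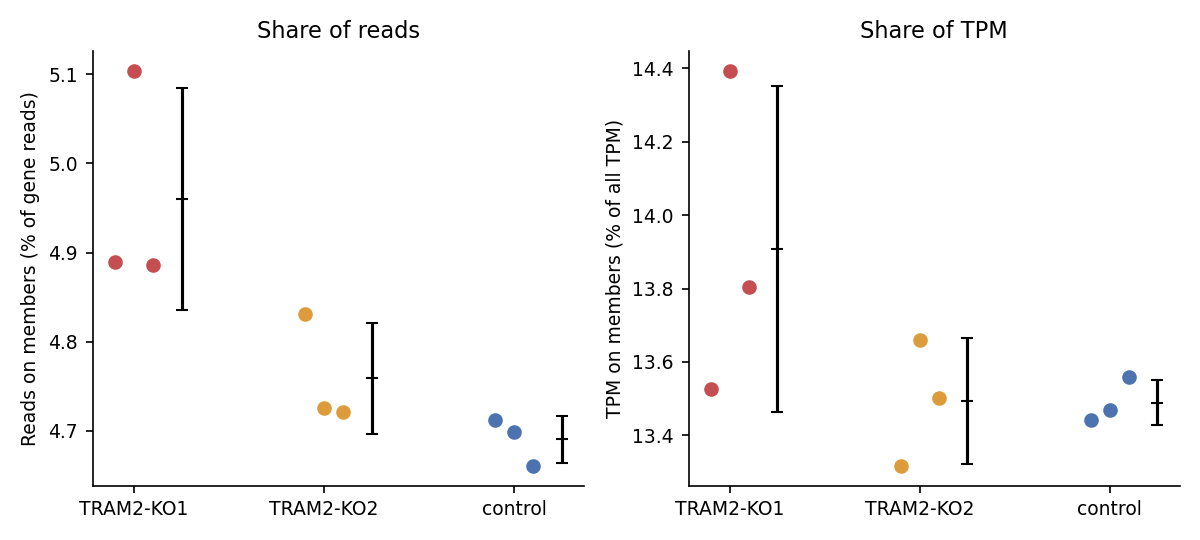
Share of each library on the ribosomal protein genes, as percent of gene reads (left) and percent of TPM (right), with 1 point per library and mean ± SD beside it; neither axis starts at 0. By reads, all 6 knockout libraries lie above the 3 control libraries (4.66 to 4.71%), and TRAM2-KO1 B is highest at 5.10%; by TPM the groups overlap.

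No single ribosomal protein gene passed the test between TRAM2-KO1 and control. Of the 85, 0 rose and 0 fell at adjusted p below 0.05 (edgeR quasi-likelihood test, adjusted over 15139 genes), whereas 0.753% of all genes tested rose and 2.15% fell (2.91% together), and none passed the added limit of 0.5 log2, which 0.482% of all genes did. The smallest adjusted p was 0.0509, for RPL23. At unadjusted p below 0.05, 42 had positive and 6 negative values, against 8.51% and 10.0% of all genes tested. The members' median log2 fold change was 0.085, with a middle range of -0.014 to 0.12, and 63 of 85 values were positive, against a median of 0.0051 over all genes and 51.4% positive. In 37 of 85 members every TRAM2-KO1 library lay above every control library and in 4 below, while 11.9% and 11.1% of all genes did so. For 82 members the 95% interval of the log2 fold change lay within 0.5 of 0 in both directions.

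The counts depended on 1 library and on the tool. DESeq2 gave 12 higher and 1 lower at adjusted p below 0.05, against 1.03% and 2.83% of all genes tested, and limma voom 1 and 0, against 0.680% and 2.13%. Without TRAM2-KO1 A edgeR gave 25 higher and 9 lower (29.4% and 10.6% of members), against 3.91% and 8.76% of all genes. The share of lower calls was thus near that of all genes. Without TRAM2-KO1 B edgeR gave 0, against 0.349% of all genes that rose and 1.78% that fell. Without TRAM2-KO1 C it gave 0, against 0.279% and 1.48%. Without TRAM2-KO2 C, which enters the shared spread, it gave 1 lower (1.18% of members), against 1.83% of all genes. TRAM2-KO1 A had the median closest to control, with members 0.042 above the control mean on the log2 CPM scale, against 0.14 in TRAM2-KO1 B and 0.047 in TRAM2-KO1 C. In TRAM2-KO1 B and C the members also spread most, with middle ranges of -0.019 to 0.20 and -0.037 to 0.097. Without TRAM2-KO1 B the members' median was 0.044.

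**Figure D3:**
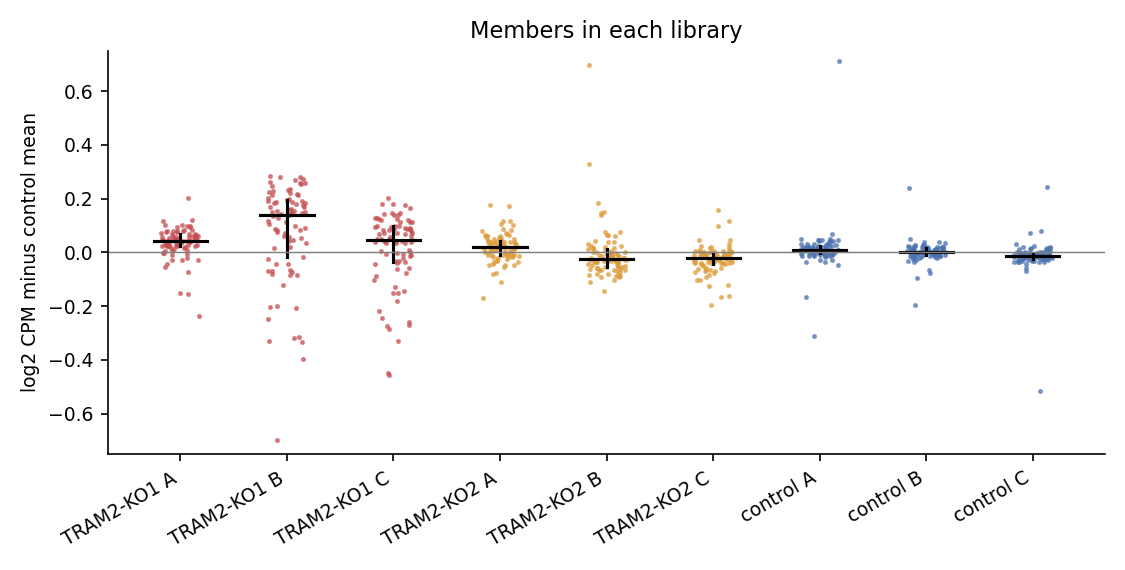
Difference of each member's log2 CPM from its control mean, with 1 point per tested member and library, a bar at the median and a vertical line over the middle 50%. Medians are 0.042, 0.14 and 0.047 in TRAM2-KO1, 0.019, -0.025 and -0.020 in TRAM2-KO2 and within 0.014 of 0 in control; points of RPL17-C18orf32 beyond ±0.75 are outside the axis.

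Members with higher GC content had lower values in TRAM2-KO1. The 29 members under 45% GC had a median log2 fold change of 0.12, the 37 of 45 to 55% GC one of 0.088, and the 19 of 55% GC or more one of -0.075. Other genes in the same bands ran the same way, at 0.048, 0.0093 and -0.13. The members' median was above that of the other genes in each band, but the top band was not matched in GC content. Its members had a median GC content of 56.5% and its other genes 59.7%. In narrower bins of 2%, other genes had medians of -0.038 around 55% and -0.061 around 57%, beside the -0.075 of these members. Spearman's rho between GC content and log2 fold change was -0.61 over the 85 members and -0.42 over all genes tested, which share the same libraries. The GC-rich genes RPS15 and RPL36 were picked after their values were seen. RPS15, a small subunit protein, had 178, 158 and 164 CPM in TRAM2-KO1, 204, 207 and 173 CPM in TRAM2-KO2 and 205, 197 and 193 CPM in control. Its TRAM2-KO1 libraries were all below control, with a log2 fold change of -0.25 ± 0.067 (SE, edgeR adjusted p = 0.0847). RPL36 had 275, 213 and 234 CPM in TRAM2-KO1 against 290, 282 and 269 CPM in control (log2 fold change -0.22 ± 0.074, edgeR adjusted p = 0.16). After a trend on GC content was taken out of every library, RPS15 was at -0.11, RPL36 at -0.045 and the median over all members at 0.075. By band, from low to high GC content, the members' medians were then 0.075, 0.084 and 0.010. In the top band 11 of 19 values were positive. RPL10A, RPL23 and RPS4X then rose in edgeR (3.53% of members, against 0.925% of all genes tested), and 0 fell, against 2.59%. The spread in GC trend between libraries was not confined to members. Spearman's rho of GC content with a library's deviation from the mean of all libraries was 0.18, -0.53 and -0.36 in the 3 TRAM2-KO1 libraries in letter order, 0.39, 0.17 and -0.090 in TRAM2-KO2 and 0.21, 0.25 and 0.14 in control. How much of the members' values goes with it beyond that fit was not tested.

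**Figure D4:**
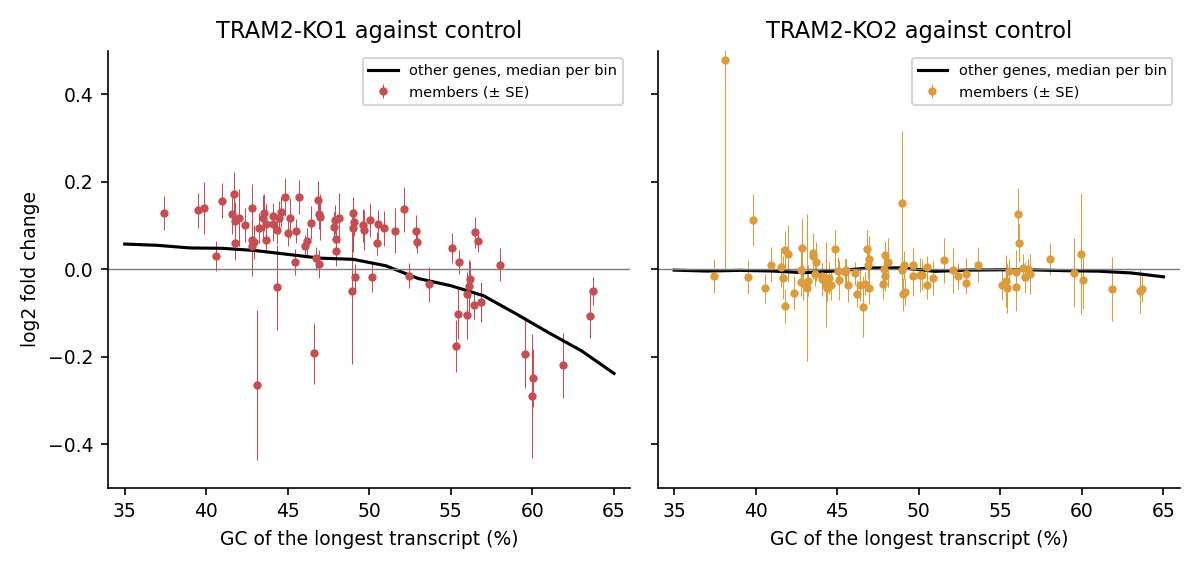
Log2 fold change of each tested member (point, ± SE) against the GC content of its longest transcript, for TRAM2-KO1 (left) and TRAM2-KO2 (right) against control, with the median of other genes per 2% bin as a line. In TRAM2-KO1 both fall with GC content and most members lie above the line; in TRAM2-KO2 both stay near 0. RPL17-C18orf32 is off the left axis at 0.85.

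In TRAM2-KO2 the same genes stayed close to control. Of the 85, 0 rose and 0 fell (edgeR), whereas 1.73% of all genes tested rose and 2.49% fell (4.22% together), and 0 were called beyond 0.5 log2, against 0.647%. At unadjusted p below 0.05, 0 were positive and 0 negative, against 6.84% and 8.18% of all genes. DESeq2 and limma voom likewise gave 0 at the adjusted threshold. The members' median log2 fold change was -0.012, beside -0.0032 over all genes, and 29 of 85 values were positive, against 48.8% of all genes. For 80 of 85 members the 95% interval lay within 0.25 of 0. Every TRAM2-KO2 library lay above control for RPL31 alone and below it for RPL24, RPL27A, RPLP1 and RPS20, against 11.3% and 12.3% of all genes. For TRAM2-KO2 the share of reads lay above control and the median in CPM did not. CPM uses the TMM factors, which were 1.01 in each TRAM2-KO2 library, 1.00, 1.01 and 1.00 in TRAM2-KO1 and 0.984, 0.985 and 0.987 in control.

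With both guides set against control, 0 of the 85 rose and 0 fell in edgeR, DESeq2 or limma voom, whereas in edgeR 1.33% of all genes tested rose and 2.51% fell (3.84% together). None was called beyond 0.5 log2, against 0.396% of all genes. At unadjusted p below 0.05, 5 were positive (RPL22L1, RPL31, RPL37A, RPS3A and RPS15A) and 2 negative (RPLP1 and RPS15), against 6.96% and 7.87% of all genes. The median was 0.034, beside -0.0029 over all genes, and 63 values were positive, against 48.9% of all genes. RPL31 was the only member with all 6 knockout libraries above all 3 control libraries, at 417, 464 and 407 CPM in TRAM2-KO1, 404, 395 and 393 CPM in TRAM2-KO2 and 386, 379 and 388 CPM in control. All genes tested showed this in 4.43%. Its log2 fold change was 0.10 ± 0.038 (SE, edgeR adjusted p = 0.22). The comparisons of each guide with control share the control libraries.

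The guides differed from each other for 5 ribosomal protein genes, all lower in TRAM2-KO2 than in TRAM2-KO1. RPL23, RPL21, RPL11, RPL26 and RPS4X fell (5.88% of members, against 0.865% of all genes tested that fell and 2.27% that changed), 0 rose, against 1.41% of all genes, and none passed 0.5 log2, which 0.476% of all genes did. RPL23, a large subunit protein at the face that meets the small subunit, had 565, 539 and 568 CPM in TRAM2-KO2 and 604, 672 and 647 CPM in TRAM2-KO1, with 573, 577 and 564 CPM in control. Both guides' libraries did not overlap, TRAM2-KO1 lay above control and TRAM2-KO2 overlapped it, and the log2 difference was -0.20 ± 0.039 (SE, edgeR adjusted p = 0.0268). RPL21 had 535, 534 and 559 CPM in TRAM2-KO2 and 586, 649 and 617 CPM in TRAM2-KO1, with 565, 556 and 572 CPM in control (-0.19 ± 0.037, edgeR adjusted p = 0.0323). RPL11, one of the proteins that bind MDM2, had 663, 643 and 687 CPM in TRAM2-KO2 and 720, 778 and 747 CPM in TRAM2-KO1, with 689, 694 and 673 CPM in control (-0.17 ± 0.035, edgeR adjusted p = 0.0351). The pattern was that of RPL23 in each.

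RPL26, a protein near the polypeptide exit of the large subunit, had 643, 629 and 658 CPM in TRAM2-KO2 and 683, 744 and 738 CPM in TRAM2-KO1, with 665, 661 and 651 CPM in control (-0.17 ± 0.035, edgeR adjusted p = 0.0395). RPS4X, the X-linked copy of a small subunit protein, had 1160, 1134 and 1153 CPM in TRAM2-KO2 and 1218, 1317 and 1257 CPM in TRAM2-KO1, with 1166, 1164 and 1152 CPM in control (-0.14 ± 0.030, edgeR adjusted p = 0.0464). The sequence windows above show a TOP tract in RPL11, RPL21 and RPL26 and none at the annotated start of RPS4X, and RPL23 had no entry. Over all members the median log2 difference was -0.089, beside -0.0074 over all genes, and at unadjusted p below 0.05 44 were negative and 7 positive, against 9.54% and 10.3% of all genes (19.8% together). In 39 of 85 members every TRAM2-KO2 library lay below every TRAM2-KO1 library, against 11.9% of all genes, and in 1 above, against 9.51%. These 5 calls depended on the settings. With transcript length offsets 0 of 85 members passed, against 0.0859% of all genes that fell and 0.205% that rose. The count was also 0 when control A, B or C, TRAM2-KO1 B or C, or TRAM2-KO2 A or B was left out. In those fits 0.130 to 0.350% of all genes fell and 0.572 to 1.00% rose, so calls were fewer over all genes too. Without TRAM2-KO2 C 2 members were lower and 1 higher (2.35% and 1.18%), against 0.364% and 0.890% of all genes. Without TRAM2-KO1 A 26 were lower and 6 higher, against 3.93% and 7.94% of all genes. DESeq2 gave 17 lower and 1 higher, against 1.07% and 2.27%. Without TRAM2-KO1 A and in DESeq2 the higher calls were no more frequent than among all genes.

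**Figure D5:**
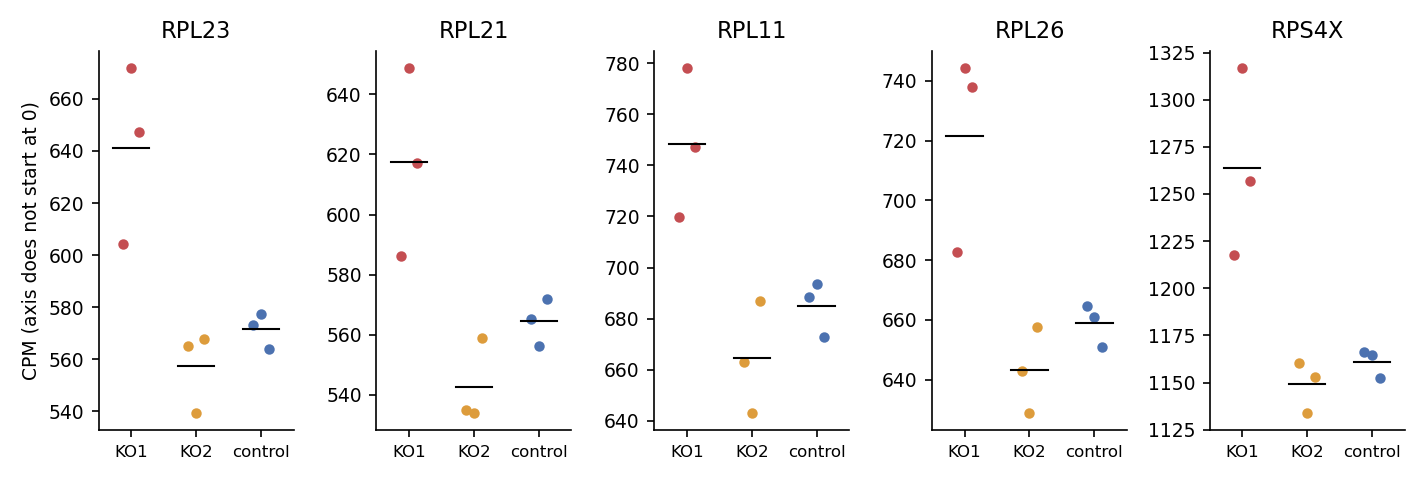
CPM of the 5 members that fell in TRAM2-KO2 against TRAM2-KO1, with 1 point per library (A, B and C from left to right in each group) and a line at the group mean; axes do not start at 0. In each panel the 3 TRAM2-KO1 libraries lie above all TRAM2-KO2 and control libraries, and TRAM2-KO1 A is the lowest of its group.

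No core gene with a special role passed against control. The P stalk, which recruits translation factors to the large subunit, consists of the products of RPLP0, RPLP1 and RPLP2. RPLP0 had 1350, 1386 and 1355 CPM in TRAM2-KO1, 1347, 1310 and 1280 CPM in TRAM2-KO2 and 1303, 1294 and 1329 CPM in control, and TRAM2-KO1 lay above control without overlap. RPLP1 had 600.5, 485 and 498.5 CPM in TRAM2-KO1, 588, 580.1 and 538 CPM in TRAM2-KO2 and 592, 615 and 603 CPM in control, where TRAM2-KO2 lay below control and TRAM2-KO1 overlapped it. RPLP2 overlapped in all groups, with 306, 277 and 259 CPM in TRAM2-KO1, 302, 299.6 and 277 CPM in TRAM2-KO2 and 296, 312 and 296.5 CPM in control. None of the 3 passed the test in any comparison. The log2 fold changes in TRAM2-KO1 were 0.059 ± 0.027, -0.19 ± 0.070 and -0.10 ± 0.057 for RPLP0, RPLP1 and RPLP2, the edgeR adjusted p being 0.27, 0.18 and 0.37.

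RPS6, the target of the S6 kinases, had 1157, 1280 and 1232 CPM in TRAM2-KO1, 1105, 1056 and 1131 CPM in TRAM2-KO2 and 1156, 1139 and 1125 CPM in control. TRAM2-KO1 lay just above control, with a log2 fold change of 0.10 ± 0.039 (edgeR adjusted p = 0.20), and TRAM2-KO2 against TRAM2-KO1 gave -0.16 (edgeR adjusted p = 0.0695). RPL5, the partner of RPL11, had 735, 829 and 777 CPM in TRAM2-KO1, 706.5, 697 and 716 CPM in TRAM2-KO2 and 723.5, 717 and 702 CPM in control (TRAM2-KO1 against control 0.13 ± 0.039, edgeR adjusted p = 0.12).

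Paralogs stood below their core genes in level and did not pass the test in any comparison. RPL22L1, which can take the place of RPL22, had 427, 497 and 412 TPM in TRAM2-KO1, 412, 470.1 and 464 TPM in TRAM2-KO2 and 401, 419 and 406 TPM in control, against a control mean of 747 TPM for RPL22. Its knockout libraries were all above the control ones except in TRAM2-KO1 C and TRAM2-KO2 A, which lay within the control range, and its log2 fold change for both guides was 0.13 ± 0.051 (edgeR adjusted p = 0.28). RPS27L, a known p53 target, had 158, 184.5 and 172 CPM in TRAM2-KO1, 152, 148 and 151 CPM in TRAM2-KO2 and 157.5, 149 and 150.1 CPM in control. TRAM2-KO1 was above control by 0.17 ± 0.050 on the log2 scale (edgeR adjusted p = 0.11), and RPS27 itself by 0.12 (edgeR adjusted p = 0.21). RPL36AL was at 0.13 (edgeR adjusted p = 0.17) and its partner RPL36A at 0.12 (edgeR adjusted p = 0.36). RPL26L1 was at 0.12, RPL7L1 at 0.016 and RPL39L at -0.26 in TRAM2-KO1, with edgeR adjusted p of 0.30, 0.81 and 0.44, and their partners RPL26, RPL7 and RPL39 at 0.13, 0.14 and 0.12. RPL3 and RPL10, whose paralogs were too low to test, were at 0.016 and 0.088. The 6 tested paralogs had a median of 0.12 in TRAM2-KO1 and -0.00066 in TRAM2-KO2, and the 76 core genes 0.084 and -0.014. Members with a TOP tract (47 tested) had a median of 0.090 in TRAM2-KO1 and -0.012 in TRAM2-KO2, and those with an entry but no tract (21) 0.067 and -0.0042.

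Part of the reads was placed on transcripts that GENCODE does not type as protein coding. The share over all members was 22.4, 22.9 and 23.1% in TRAM2-KO1, 22.6, 22.0 and 22.6% in TRAM2-KO2 and 22.5, 22.4 and 22.3% in control, with p = 0.30 for TRAM2-KO1 and p = 1.0 for TRAM2-KO2 against control (exact permutation tests). In the other protein-coding genes it was 9.96 to 10.0% in TRAM2-KO1, 9.29 to 9.76% in TRAM2-KO2 and 9.59 to 9.69% in control. Retained-intron transcripts held 7.88 to 8.81% of the members' reads in TRAM2-KO1, 7.68 to 7.88% in TRAM2-KO2 and 7.57 to 7.97% in control, TRAM2-KO1 B being highest. The share passed 50% in 16 tested members, and was largest in RPS13, RPS23, RPS27 and RPS28, at 99.4%, 98.0%, 97.8% and 96.1% over all libraries. How many bases set such transcripts apart from the coding one was not measured, and Salmon's division between them cannot be checked from the deposited values.

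The family has many processed pseudogenes, copies of its mRNAs in the genome. Of 1521 pseudogenes named after members, 623 had reads, and together they took 0.083 to 0.090% of gene reads in TRAM2-KO1, 0.078 to 0.083% in TRAM2-KO2 and 0.082 to 0.083% in control. For 7 members they held over 5% of the reads of gene and pseudogenes together. In RPS28 this was 72.4 ± 2.87% in TRAM2-KO1, 71.5 ± 0.11% in TRAM2-KO2 and 72.01 ± 0.57% in control (SD, n = 3 each), and in RPL9 62.7 ± 1.84%, 61.7 ± 0.58% and 62.8 ± 0.53% in the same groups. RPL36A followed with 32.4% and RPL22 with 17.6% over all libraries. The levels of these genes are uncertain for that reason. RPS28 had 43.95, 26.3 and 33.9 CPM in TRAM2-KO1, 44.4, 47.2 and 39.7 CPM in TRAM2-KO2 and 42.9, 42.3 and 42.8 CPM in control, and its log2 fold change of -0.29 ± 0.14 in TRAM2-KO1 did not pass (edgeR adjusted p = 0.31).

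Other genes of ribosome production had no calls against control and few between the guides. Of 22 further genes with TOP mRNAs, 0 passed against control, 17 were positive in TRAM2-KO1 and 7 in TRAM2-KO2, and the medians were 0.065 and -0.012. EEF1A1, the elongation factor that delivers aminoacyl-tRNA, had 8985, 9393 and 9317 CPM in TRAM2-KO1, 8897, 8647 and 8734 CPM in TRAM2-KO2 and 8723, 8726 and 8690 CPM in control. Its TRAM2-KO1 libraries were the highest, at 0.083 ± 0.023 on the log2 scale (edgeR adjusted p = 0.0918). TPT1 was the member of this list that fell in TRAM2-KO2 against TRAM2-KO1, by 0.11 on the log2 scale (edgeR adjusted p = 0.0414). It had 1833, 1838 and 1889 CPM in TRAM2-KO2 and 1983, 1988 and 2024 CPM in TRAM2-KO1.

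Of 40 ribosome biogenesis genes 39 were tested, and of 14 RNA polymerase I genes 14. None passed against control, and the medians in TRAM2-KO1 were 0.031 and 0.014. RRS1, a 60S assembly factor, rose in TRAM2-KO2 against TRAM2-KO1 by 0.22 ± 0.043 (edgeR adjusted p = 0.0281), against the direction of the 5 ribosomal protein genes, with 105.0, 104.7 and 103.5 CPM in TRAM2-KO2 and 94.5, 84.2 and 90.1 CPM in TRAM2-KO1. The 78 mitochondrial ribosomal protein genes had 0 that passed and medians of 0.032 in TRAM2-KO1 and 0.0026 in TRAM2-KO2. The 14 snoRNA host genes, several of which also carry TOP tracts, had the highest medians of these lists, 0.11 in TRAM2-KO1 and 0.075 in TRAM2-KO2, and 0 passed. In TRAM2-KO1 11 of the 14 were positive, and in TRAM2-KO2 12. GAS5 had 106, 112 and 101 CPM in TRAM2-KO1, 106, 97.3 and 103 CPM in TRAM2-KO2 and 95.5, 96.2 and 91.3 CPM in control, with both guides above control and a log2 fold change in TRAM2-KO1 of 0.17 ± 0.045 (edgeR adjusted p = 0.0739). SNHG16 went the other way, with 110, 104 and 96.0 CPM in TRAM2-KO1 against 125, 119 and 115 CPM in control. Its log2 fold change there was -0.21 ± 0.051 (edgeR adjusted p = 0.0621), and TRAM2-KO2 overlapped control. Among 14 regulators, 0 passed. The medians were -0.029 in TRAM2-KO1 and -0.038 in TRAM2-KO2, with 4 and 1 values positive. EIF4EBP1 and RPS6KB2 had every knockout library below every control library, which 4.72% of all genes tested did. For both guides they were at -0.15 ± 0.043 and -0.15 ± 0.046 (edgeR adjusted p = 0.10 and 0.11). MYC, which drives ribosome production, had 105, 104 and 103 CPM in TRAM2-KO1, 113, 109.8 and 109 CPM in TRAM2-KO2 and 117, 111 and 113 CPM in control, and TRAM2-KO1 lay below control by a log2 value of -0.13 ± 0.032 (edgeR adjusted p = 0.0579).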

How the data were processed

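Poly(A) RNA of 9 libraries was quantified by the authors, who trimmed reads with cutadapt and ran Salmon. Tool versions, transcript release and genome build: not given in the sources used here. The authors deposited each transcript's estimated count from Salmon, TPM scaled over all transcripts of a library, and effective lengths. The counts were summed per gene through GENCODE release 44 (97.5% of 226030 transcripts matched), rounded, filtered (filterByExpr, minimum 10 reads, 15139 genes) and fitted over all 9 libraries with edgeR 4.0.16 (R 4.3.3; TMM, quasi-likelihood test, two-sided, Benjamini-Hochberg over all genes tested; SE in log2). "Rose" and "fell" mean adjusted p below 0.05, "called" also beyond 0.5 log2. CPM are TMM-scaled. DESeq2 1.42.0 and limma 3.58.1 (voom) were alternatives. Shares were compared by exact permutation over libraries (scipy 1.17.1). Genes were named by rank of level, by test result, as paralogs and partners, by role (P stalk, RPL5, RPL11, RPS6), and by largest noncoding-transcript and pseudogene share; from the other lists, genes were drawn from the 4 with the smallest p for both guides, or for passing between guides. RPS15, RPL36, TPT1, RRS1 and the members listed with counts of 5 or fewer were named after their values were seen. Some items are not reported here. The members and lists were chosen with earlier results of these data known. Start sequences came from RefSeq (GRCh38.p14); no other coordinates are printed. On simulated counts for TRAM2-KO1 against control (15139 genes), 16.0% of changes of 0.2 log2, 59.2% of 0.5 and 78.1% of 1 were recovered among changed genes that passed the filter. There were 5 false calls. The changed genes were drawn at random from all genes tested, so these shares do not describe the members, whose median SE was 0.039. Replicates are not stated to be separate cultures beyond the design text's wording, so p-values measure the spread between these libraries, which may be technical.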

Additional observations from a re-analysis of the deposited data

Results flagged for a closer look

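The effects of the guides relative to control differed by a direct test for 5 ribosomal protein genes. The log2 difference of TRAM2-KO2 minus TRAM2-KO1 was -0.20 for RPL23, -0.19 for RPL21, -0.17 for RPL11, -0.17 for RPL26 and -0.14 for RPS4X (edgeR quasi-likelihood test, adjusted over 15139 genes). In all 5 every TRAM2-KO2 library lay below every TRAM2-KO1 library, and neither guide passed the test against control. Groups of 3 libraries were not examined for single outlying values.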

How the results depend on the processing

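For TRAM2-KO2 against control 0 members passed under every alternative, against 0.443 to 3.43% of all genes that rose and 0.588 to 3.59% that fell. For both guides against control 0 passed under every alternative but the omission of TRAM2-KO1 A (leave-one-out range 0 to 2). In that fit 2 members were lower (2.35%), against 4.45% of all genes. In the other alternatives 0.284 to 2.32% of all genes rose and 0.826 to 3.85% fell. For TRAM2-KO1 against control, where edgeR gave 0, DESeq2 gave 13 (12 higher, 1 lower), against 1.03% and 2.83% of all genes. No filter on low counts gave 10 (8 higher, 2 lower), against 0.585% and 1.70%. With the GC trend removed 3 were higher, against 0.925% of all genes. In each of these settings 1 member was higher: limma voom (all genes 0.680%), a mean of at least 5 CPM (1.25%) and the replicate block with the GC trend removed (0.826%). In each of these 1 was lower: the length trend removed (all genes 2.20%) and only the groups compared (1.64%). Leaving out 1 library gave 0 to 34, the 34 without TRAM2-KO1 A (25 higher and 9 lower, against 3.91% and 8.76%) and 1 without TRAM2-KO2 C. For TRAM2-KO2 against TRAM2-KO1, where edgeR gave 5, DESeq2 gave 18 (17 lower, 1 higher), against 1.07% and 2.27% of all genes. No filter gave 11 (10 lower, 1 higher), against 0.613% and 1.54%. With the GC trend removed 8 were lower, against 1.31% of all genes. The length trend removed and the replicate block each gave 1 lower, against 0.879% and 0.588%. Transcript length offsets gave 0, against 0.0859% of all genes that fell, and only the groups compared 0, against 0.155%. Leaving out 1 library gave 0 to 32, the 32 without TRAM2-KO1 A (26 lower and 6 higher, against 3.93% and 7.94%). Causes were not tested. The members' median kept its sign in all alternatives of each comparison; leaving out 1 library gave 0.044 to 0.10 for TRAM2-KO1, -0.024 to -0.0020 for TRAM2-KO2, 0.018 to 0.043 for both guides and -0.11 to -0.052 between guides, with the values nearest 0 without TRAM2-KO1 B except for TRAM2-KO2 (without TRAM2-KO2 B; farthest without TRAM2-KO2 A). The differences in read share kept their signs and side of the threshold, and ranged on leaving out 1 library over 0.20 to 0.31, 0.033 to 0.088, 0.12 to 0.20 and -0.24 to -0.13 percentage points, the smallest being without TRAM2-KO1 B except for TRAM2-KO2 (without TRAM2-KO2 A); as a share of TPM they were 0.42, 0.0035, 0.21 and -0.42. Correlations between libraries of the same letter were -0.088 to 0.11 over 9 same-letter pairs. In every group, though, library A had the largest mitochondrial share of reads. Spearman's rho of transcript length with a library's deviation rose from A to C in every group. These values do not settle whether the letters pair libraries. With the replicate block the counts were 0, 0, 0 and 1. The mean paired differences in share gave p = 0.25 by exact sign permutation, the smallest possible. Depth was high for core genes and limited RPL17-C18orf32, with 17.5 to 80.9 reads a library.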
